A study of Mus musculus with 6 samples.

Results

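The genes described here are 8 genes of polyamine synthesis and its control, Amd1, Amd2, Odc1, Srm, Sms, Sat1, Azin1 and Oaz1, out of 21881 gene symbols in the expression table. They were taken by symbol, each stands on a single row, and all 8 lay above the expression filter used for the tests. The list was assembled around Amd1 and Amd2, which were chosen by their FPKM difference between the genotypes. The difference between genotypes is therefore given for each of the 8 genes as a description, with no p-value, and counts of calls are set beside the share of all genes without being read as a result. RNA was sequenced from olfactory epithelium, the tissue inside the nose that holds the odour-sensing neurons, of adult NMRI mice. The KO group carried the NKCC1-/- genotype, which lacks a functional Slc12a2 gene for the sodium-potassium-chloride cotransporter, and the WT group was wildtype. Each genotype had 3 libraries from pooled epithelia: a mixed pool with 2 epithelia of each sex, a male pool of 3 mice and a female pool of 3 mice. Where 3 values are given for a genotype, they stand in this order throughout. All libraries were treated with duplex-specific nuclease, which lowers the most abundant transcripts. The allele's construction is not described in the labels.

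Polyamines are small positively charged molecules that bind nucleic acids and support translation and growth. Ornithine decarboxylase (Odc1) makes putrescine from ornithine, and S-adenosylmethionine decarboxylase (Amd1, Amd2) makes the donor of aminopropyl groups. Spermidine synthase (Srm) adds such a group to putrescine to give spermidine, and spermine synthase (Sms) adds another to give spermine. Sat1 acetylates spermidine and spermine for export or breakdown. Antizyme (Oaz1) binds ornithine decarboxylase and sends it to the proteasome, and the antizyme inhibitor (Azin1), a relative of ornithine decarboxylase without its activity, binds antizyme. Inside cells polyamines also block several cation channels, the cyclic nucleotide-gated channels of sensory cells among them.

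Amd1 and Amd2 are near-identical copies on mouse chromosome 10, and how alike they are bears on every value below. In the GENCODE M21 annotation (GRCm38) the main Amd1 transcript has 8 exons and 3204 bases, and that of Amd2 has 1 exon and 3218 bases. When the 2 transcripts were aligned, 3190 of 3204 aligned bases were identical (99.6%). Of the 14 substitutions, 1 lay before the coding part, 1 within its 1005 bases and 12 after it. The coding difference is G796C (the Amd1 base, its position counted from the first base of the start codon, then the Amd2 base). The coding stretch around it is shown because it is the only place where the coding parts differ. The coding part was taken as the longest reading frame from a start codon to a stop codon in each transcript. The capital marks the differing base.
Amd1 coding stretch: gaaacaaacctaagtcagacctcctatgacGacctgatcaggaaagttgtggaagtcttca
Amd2 coding stretch: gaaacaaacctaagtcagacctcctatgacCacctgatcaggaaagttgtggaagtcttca

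Of the 3104 windows of 101 bases in the Amd1 transcript, the length sequenced in this series, 2265 also occur in Amd2 (73.0%). Within the coding part the figure was 804 of 905 windows (88.8%). A sequenced stretch that matches such a window exactly cannot be assigned to a single copy, so how the authors' program divided the fragments decides a large part of each gene's FPKM. The 839 remaining Amd1 windows hold a base or gap that separates the copies. In addition, 3 of the 5 Amd pseudogenes in that annotation share windows with Amd1, most of all Amd-ps3, with 804 of its 905. No row of the expression table carries an Amd pseudogene symbol. The reference is of another build than the mm9 build named in the submitters' processing notes, and NMRI mice may carry other bases at these positions. In the RefSeq gene table (GRCm38.p6), Amd1 is also listed as an older name of Amd2, and the sources used here do not say which copy the authors' annotation called by which name.

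**Figure D1:**
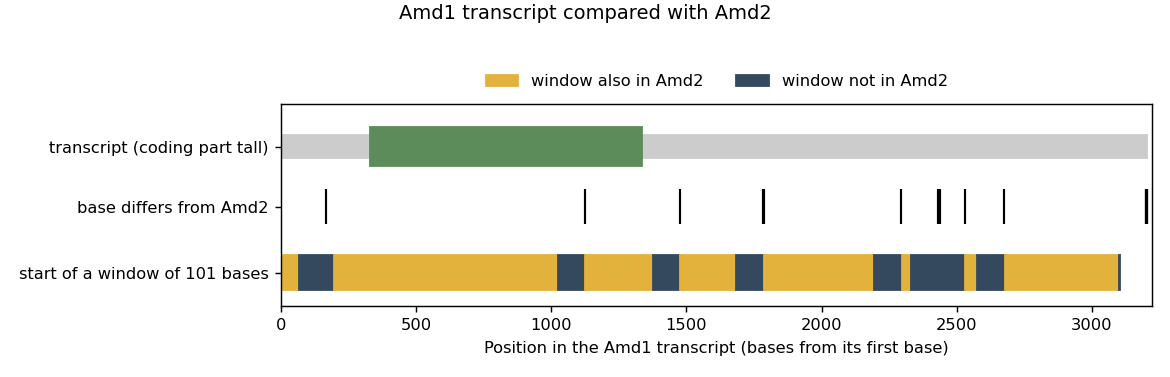
The Amd1 transcript from its first to its last base (x axis, bases), with the 1005-base coding part as the tall green box, the 14 bases that differ from Amd2 as ticks, and the starts of 101-base windows coloured by whether the same window occurs in Amd2. Most starts, 2265 of 3104, are of windows found in both copies, and those that separate the copies lie in short blocks beside the ticks.

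The copies share no such likeness upstream of the transcript. The promoters are shown because the transcripts are so alike and the stretches before them are not. They come from RefSeq (GRCm38.p6) and run from 250 bases before the annotated start to 30 bases after it, minus strand. Capitals mark the first 30 transcribed bases, in which the copies are nearly the same apart from a small offset of the annotated start. Amd1 lies at chr10:40302159-40302438 and Amd2 at chr10:35711862-35712141 in that build.
Amd1 promoter: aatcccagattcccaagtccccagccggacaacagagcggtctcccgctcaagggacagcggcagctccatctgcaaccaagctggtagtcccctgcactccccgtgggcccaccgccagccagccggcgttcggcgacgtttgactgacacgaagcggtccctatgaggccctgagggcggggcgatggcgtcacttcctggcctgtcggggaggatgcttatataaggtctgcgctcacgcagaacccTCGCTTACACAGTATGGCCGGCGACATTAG
Amd2 promoter: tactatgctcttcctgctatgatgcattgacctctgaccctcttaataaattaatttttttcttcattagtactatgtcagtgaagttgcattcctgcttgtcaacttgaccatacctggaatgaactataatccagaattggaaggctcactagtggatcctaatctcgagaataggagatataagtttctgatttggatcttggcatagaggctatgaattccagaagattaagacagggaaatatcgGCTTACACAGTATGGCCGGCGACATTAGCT

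In the 250 bases before the start, 64 positions were identical and the longest shared run was 7 bases. G and C made up 64.4% of this stretch in Amd1 and 37.6% in Amd2, against a median of 52.4% over the 32851 promoters in the table. The Amd2 stretch was poorer in G and C than most promoters, since 7.92% of all promoters lay below it.

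The libraries were described by FPKM, the number of fragments scaled to transcript length and library depth. Depth estimated from the spacing of low values was 3890000 to 13500000 fragments in KO libraries and 3570000 to 14000000 in WT libraries, the mixed pools being the shallowest in each genotype. Correlations of log2(FPKM + 1) were 0.94 to 0.98 for libraries of the same genotype and 0.93 to 0.97 across genotypes. Slc12a2, the targeted gene, was at 28.0, 16.1 and 18.0 FPKM in KO, against 83.3, 40.2 and 36.0 FPKM in WT. It was lower in each KO library but not absent. All 12 listed markers of mature olfactory neurons were detected, and their summed FPKM was 4345 to 6457 in KO and 7741 to 11845 in WT. All 12 had a negative difference, and limma called 1 of them. Cnga2, Cnga4, Stoml3, Rtp2, S100a5 and Kirrel2 were lower in each KO library. Omp, Adcy3, Gnal, Gng13, Ano2 and Rtp1 overlapped between the genotypes, and each was higher in the KO female than in the WT female pool. This order of the female pools depended on the scaling. Median-ratio scaling divides each library by its median gene ratio to the mean library, here 1.15 for KO female and 0.762 for WT female. With it Adcy3 stayed higher in the KO female pool, and Omp, Gnal, Gng13, Ano2 and Rtp1 were lower there. In bulk tissue, fewer cells of a type and less RNA per cell cannot be told apart. Across all 15067 tested genes, limma called 126 for genotype, 32 higher (0.212%) and 94 lower (0.624%) in KO. These counts turn on single libraries: 184 were higher without the WT mixed library, 453 lower without the WT female library, and 15 higher with 25 lower without the KO female library.

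Amd1 was found almost only in the KO libraries. It had 21.1, 30.2 and 27.6 FPKM in KO, against 0.0894, 0.893 and 0.807 FPKM in WT. All 3 KO libraries were far above all 3 WT libraries, and the WT levels were low in each kind of pool. The means were 26.3 ± 4.67 FPKM in KO and 0.596 ± 0.441 FPKM in WT (SD, n = 3 each), a log2(FPKM + 1) difference of 4.12 ± 0.29 (SE). At the estimated depths the Amd1 level corresponded to 251 to 1239 fragments in the KO libraries. In the WT male and female libraries it corresponded to 38.2 and 27.1 fragments, and in the WT mixed library to about 1. The KO level was 33.8 times the WT level in the male pools and 34.2 times in the female pools.

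Amd2 went the other way. It had 17.3, 10.4 and 17.9 FPKM in KO, against 49.4, 44.4 and 37.0 FPKM in WT. Each KO library was below each WT library, and the KO male pool was the lowest of all 6. The means were 15.2 ± 4.14 FPKM in KO and 43.6 ± 6.20 FPKM in WT (SD, n = 3 each), a log2 difference of -1.49 ± 0.25 (SE). As a percentage of WT, the KO level was 35.0 (mixed), 23.4 (male) and 48.2 (female) by pool. Among the KO libraries, the male pool had both the highest Amd1 and the lowest Amd2 value.

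The sum of the 2 copies did not separate the genotypes. It was 38.4, 40.6 and 45.4 FPKM in KO, against 49.5, 45.3 and 37.9 FPKM in WT. The groups overlapped: the WT female sum was the lowest of the 6, and the KO female sum lay above that of the WT male pool. The means were 41.5 ± 3.61 FPKM in KO and 44.2 ± 5.88 FPKM in WT (SD, n = 3 each). The KO mean was 93.8% of the WT mean, and the log2 difference of the sum was -0.09 ± 0.13 (SE). Compared pool by pool, KO sums were 77.6, 89.5 and 120% of WT sums. Without the mixed pools the KO mean was 103% of the WT mean, so the small difference in the sum had no fixed direction. The sum does not depend on how shared fragments were divided between copies of nearly equal length. It would depend on it if the authors' annotation gave the copies unlike lengths. Fragments that the authors' program placed on an Amd pseudogene would be missing from the sum, and their number is not known here.

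What differed was the composition of the sum. Amd1 made up 55.0, 74.4 and 60.7% of the pair's FPKM in KO, against 0.181, 1.97 and 2.13% in WT. In KO each library had more Amd1 than Amd2, and in WT each had almost only Amd2. The mean share of Amd1 was 63.3 ± 9.95% in KO and 1.43 ± 1.08% in WT (SD, n = 3 each). A share within a library does not depend on the scaling of that library. From these values, transcription of another copy and another division of like fragments cannot be told apart.

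**Figure D2:**
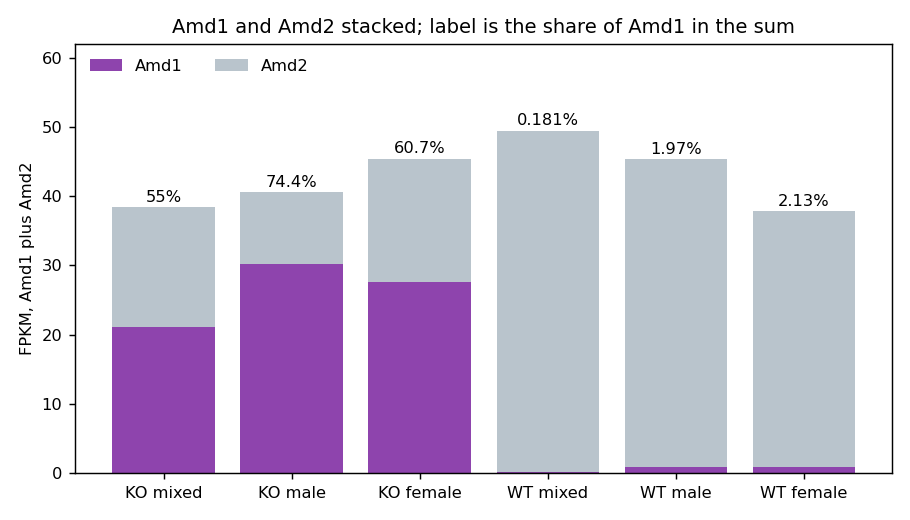
FPKM of Amd1 (purple, from 0) with that of Amd2 (grey) stacked on top in each library, KO to the left and WT to the right, with the percentage of Amd1 in the sum above each bar. The bar heights overlap between genotypes, from 38.4 to 45.4 FPKM in KO and from 37.9 to 49.5 FPKM in WT, whereas the purple part makes up 55.0 to 74.4% of the bar in KO and at most 2.13% in WT.

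To see how common such a change of composition was, all pairs of symbols that differ only in their last digit or letter were listed. With a summed mean of at least 5 FPKM and a sum above 0 in each library, 18847 pairs were found. For each, the gap was taken between the lowest share of the first gene in one genotype and its highest share in the other. Amd1 and Amd2 had the widest gap, at 52.9 percentage points. The gap was above 0 for 3957 pairs, above 10 points for 233 and above 30 points for 9. The Amd pair was chosen for its difference, so its place in this order is a description and no test. Like symbols need not mean like sequences, and many genes stand in more than 1 pair.

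The next 5 pairs were all odorant receptors. They were Olfr1290/Olfr1298 (gap 47.6 points), Olfr192/Olfr197 (43.1), Olfr1290/Olfr1295 (40.1), Olfr292/Olfr297 (37.1) and Olfr1414/Olfr1419 (36.3). In 4 of the 5 the summed FPKM also separated the genotypes, with KO below WT, as it did not for the Amd pair. The minimum of 5 FPKM applied to the mean over all 6 libraries, so a pair could pass through its WT values. For Olfr192/Olfr197 the mean sum was 4.93 FPKM in KO and 19.3 FPKM in WT. For Olfr292/Olfr297 it was 2.52 FPKM in KO and 10.7 FPKM in WT. Olfr1290 averaged 0.586 FPKM in KO and 10.03 FPKM in WT. The KO shares of these receptor pairs thus rest on low values. The pairs were picked by their gap between genotypes, so the separation of their sums is a description and no test. The main transcripts of these 5 receptor pairs shared 0 windows of 101 bases in the GENCODE annotation, whereas 73.0% of those of Amd1 occurred in Amd2.

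**Figure D3:**
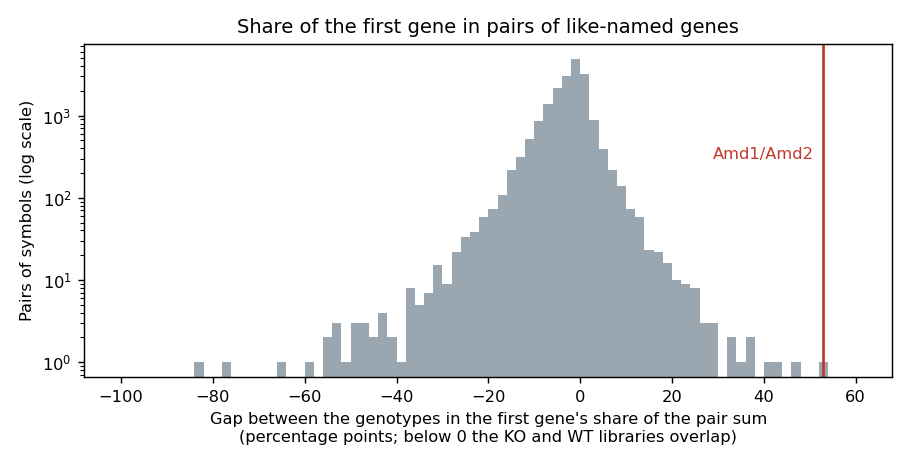
Number of like-named gene pairs (y axis, log scale) by the gap between genotypes in the first gene's share of the pair sum (x axis, percentage points), where values below 0 mean that the KO and WT libraries overlap. Of 18847 pairs, 9 had a gap above 30 points, and the line for Amd1/Amd2 stands at 52.9 points.

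The other 6 genes of the group differed far less, with log2 differences from -0.17 to 0.41. Among them 0 were called by limma over all genes, where 0.836% of all tested genes were called, and 0 had an unadjusted p under 0.05, as 8.88% of all genes did. In 2 of the 6, Srm and Sat1, the genotypes did not overlap, which was the case for 12.7% of all genes (KO above WT for 7.46%, KO below WT for 5.24%). Since the list was built on this comparison, nothing is read from these counts.

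Srm, spermidine synthase, was at 19.3, 25.6 and 19.2 FPKM in KO, against 13.8, 15.9 and 17.7 FPKM in WT. Each KO value was above each WT value, with the KO female and the WT female pool closest together. The means were 21.4 ± 3.69 FPKM in KO and 15.8 ± 1.93 FPKM in WT, a log2 difference of 0.41 ± 0.23 (SE). The difference was widest in the male pools, where KO was at 162% of WT, and 108% in the female pools.

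Sms, spermine synthase, showed no such separation. It was at 29.9, 31.04 and 39.7 FPKM in KO, against 39.1, 39.3 and 34.2 FPKM in WT. The KO female pool was the highest of all 6 libraries and the KO mixed pool the lowest. The log2 difference was -0.17 ± 0.22 (SE). The ratio of Srm to Sms, which is free of library scaling, was 0.646, 0.826 and 0.483 in KO and 0.353, 0.403 and 0.516 in WT. It overlapped through the female pools.

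Odc1, ornithine decarboxylase, was at 50.2, 59.4 and 63.1 FPKM in KO, against 48.7, 54.3 and 49.9 FPKM in WT. The groups overlapped because the KO mixed value lay below the WT male value. The means were 57.6 ± 6.66 FPKM in KO and 51.0 ± 2.93 FPKM in WT, with a log2 difference of 0.17 ± 0.21 (SE). Within each kind of pool the KO value was the higher, at 103, 109 and 127% of WT.

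The RNAs of the 2 proteins that regulate ornithine decarboxylase overlapped between the genotypes. Oaz1, antizyme, was at 303, 349 and 421 FPKM in KO, against 339, 388 and 382 FPKM in WT. The KO libraries held both the lowest and the highest value. Azin1, the antizyme inhibitor, was at 55.3, 49.3 and 43.8 FPKM in KO and 47.1, 48.3 and 50.5 FPKM in WT, again with the KO libraries outside the WT range on both sides. The log2 differences were -0.06 ± 0.25 for Oaz1 and 0.02 ± 0.21 for Azin1 (SE). Oaz1 turned to 0.05 without the KO mixed library. Azin1 turned to -0.06 without the KO mixed library, to -0.0043 without the WT mixed library, to -0.09 without both mixed pools and to -0.0076 under median-ratio scaling.

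The level of Oaz1 relative to Odc1 was also compared, a ratio chosen after its values were seen. It was 6.05, 5.87 and 6.67 in KO and 6.95, 7.14 and 7.66 in WT. Each KO ratio was below each WT ratio. The ratio of Azin1 to Odc1 overlapped, at 1.102, 0.830 and 0.694 in KO and 0.967, 0.890 and 1.01 in WT. Odc1 per summed Amd FPKM ran from 1.31 to 1.46 in KO and from 0.985 to 1.32 in WT and overlapped too.

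Sat1, spermidine/spermine acetyltransferase, was at 73.9, 68.5 and 74.4 FPKM in KO, against 58.6, 62.5 and 52.5 FPKM in WT. Each KO value was above each WT value, with the male pools closest together. The means were 72.3 ± 3.25 FPKM in KO and 57.9 ± 5.04 FPKM in WT, a log2 difference of 0.32 ± 0.21 (SE). The Srm and Sat1 differences stayed positive with any single library left out and under each scaling. They ran from 0.28 to 0.49 for Srm and from 0.25 to 0.38 for Sat1. Because the groups did not overlap, leaving out a library could not change the sign. Under median-ratio scaling the log2 SD within genotypes grew from 0.20 to 0.44 for Srm and from 0.10 to 0.20 for Sat1. With that scaling both genes overlapped between the genotypes, the KO female value lying below the WT female value.

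**Figure D4:**
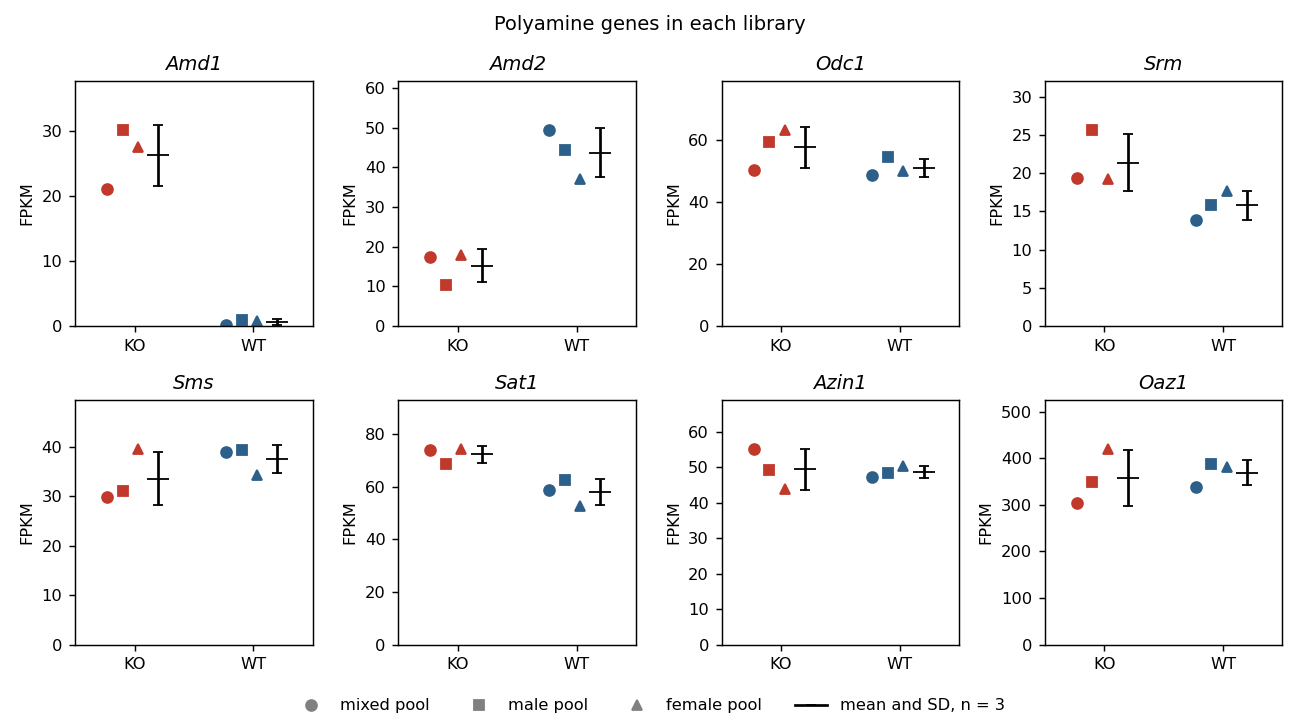
FPKM (y axes, each from 0) of the 8 genes in each library, KO (red) to the left of WT (blue) in each panel. Symbols give the kind of pool and the bars the mean and SD of 3 libraries. Amd1 and Amd2 are separated by genotype in opposite directions, Srm and Sat1 are separated narrowly, and Odc1, Sms, Azin1 and Oaz1 overlap.

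FPKM is scaled to transcript length, so levels can be set beside each other. Oaz1 was the most abundant of the 8 at a mean of 364 FPKM over the 6 libraries, more abundant than 98.9% of tested genes. Sat1 (65.1), Odc1 (54.3) and Azin1 (49.0) followed, then Sms (35.5), Amd2 (29.4), Srm (18.6) and Amd1 (13.4). Oaz1 was above Sat1, Sat1 above Odc1, and Azin1 above Sms in all 6 libraries. Odc1 was above Azin1 in 4 of 6, so these neighbours did not differ beyond their spread. Below Azin1 the order depended on the genotype: Amd2 was above Sms in WT libraries and below it in KO libraries. Duplex-specific nuclease lowers abundant transcripts, so the level of Oaz1 relative to the rest may be understated by an amount not known here.

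The highest and lowest of the 6 libraries differed by a factor of 1.26 for Azin1, 1.295 for Odc1, 1.33 for Sms, 1.39 for Oaz1 and 1.42 for Sat1. The factor was 1.86 for Srm and 4.75 for Amd2. Within WT alone, Amd2 varied by a factor of 1.33, close to the 1.28 of Srm. Over the 6 libraries, log2 levels of Amd1 and Amd2 had a Pearson correlation of -0.96. That of Srm was 0.84 with Amd1 and -0.94 with Amd2, and Sat1 had 0.87 with Amd1. Azin1 and Oaz1 had -0.79, and Sms and Azin1 -0.82. These are descriptions over 6 libraries that share depth and scaling, and the first few hold the genotype difference for which the list was made.

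Sex of the pool was a contrast that the choice of genes had not used. With the female share of the pool as a term beside genotype, 0 of the 8 genes were called by limma, where 0.0996% of all tested genes were. At an unadjusted p under 0.05 the number was also 0, against 0.743% of all genes. The coefficient for Amd2 was 0.23 (95% interval -0.52 to 0.99) and for Amd1 -0.10 (-0.97 to 0.78). For Odc1 it was -0.02 (-0.73 to 0.69). In simulated data this test found 34.6% of the genes given a change of log2 2 and 0.4% of those given log2 1, so small effects of sex could not be seen.

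The test of whether the KO-WT difference depended on sex likewise called 0 of the 8 genes, with 0.126% of all genes called. None of the 8 had an unadjusted p under 0.05, against 4.15% of all genes. For Amd2 the interaction coefficient was 0.98, with a 95% interval from -0.36 to 2.33 and an adjusted p of 0.68 in limma. With 2 residual degrees of freedom this test found 0% of the genes given a change of log2 2 in simulated data, and its intervals are wide.

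The genes around polyamine synthesis were described from 6 lists with 42 genes other than the 8. All 42 were in the table, 3 of them under an older symbol, and 36 passed the filter. Of these 36, limma called 0 for genotype over all genes. At an unadjusted p under 0.05, 3 were higher and 2 lower in KO, where 8.88% of all tested genes passed in either direction. The median log2 difference was 0.08, where the median of all tested genes was 0.01. For 7 of the 36 the genotypes did not overlap, 4 with KO above and 3 with KO below WT, against 7.46 and 5.24% of all genes.

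Of the 8 tested genes of ornithine and arginine supply, 0 passed the test, 7 had a positive difference, and the median was 0.31. Arg1, arginase, which makes ornithine from arginine and is a known product of alternatively activated macrophages, was at 1.53, 0.619 and 1.895 FPKM in KO, against 0, 0.521 and 0.370 FPKM in WT. The KO values were all above the WT values, narrowly so in the male pools, and the WT mixed library is listed at 0. Its log2 difference was 0.84 ± 0.26 (SE) with an adjusted p of 0.23 in limma, the smallest of the 36. Limma called 0.212% of all tested genes higher in KO. Of the 8 listed macrophage markers 2 were so called, and all 8 had a positive difference. They summed to 4931 to 8246 FPKM in KO and 74.9 to 252 FPKM in WT, in KO nearly all of it from the chitinase-like Chi3l4. The median log2 difference of the 8 macrophage markers was 0.71, and C1qa overlapped between the genotypes. The part of such cells in the Arg1 values was not tested.

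Gatm, which passes an amidino group from arginine to glycine and releases ornithine, was at 9.30 ± 1.58 FPKM in KO and 5.14 ± 1.36 FPKM in WT (SD, n = 3 each). Its log2 difference was 0.76, with an adjusted p of 0.32 in limma, and the libraries did not overlap. Oat, ornithine aminotransferase, was the most abundant of the list at 65.8 ± 2.50 FPKM in KO and 54.9 ± 6.55 FPKM in WT. The groups did not overlap, and the adjusted p was 0.95 in limma. Asl was at 13.7 ± 2.13 and Ass1 at 9.41 ± 1.88 FPKM in KO, against 12.2 ± 0.726 and 8.32 ± 1.72 FPKM in WT (SD, n = 3 each).

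Of the 10 genes of S-adenosylmethionine supply and methionine salvage, 0 passed. Such genes provide the substrate of Amd1 and Amd2 and recycle the by-product of Srm and Sms. The list had 7 negative differences and a median of -0.20. Enoph1, an enzyme of methionine salvage, was at 10.8, 11.5 and 16.1 FPKM in KO, against 21.8, 21.5 and 16.4 FPKM in WT. The groups did not overlap, but the female pools were almost level. Its log2 difference was -0.61 ± 0.25 (SE), with an adjusted p of 0.43 in limma. Adi1, also of methionine salvage, was at 92.8 ± 21.7 FPKM in KO and 115 ± 21.9 FPKM in WT (SD, n = 3 each). Mat2a, the catalytic subunit of methionine adenosyltransferase, was at 63.4 ± 3.61 FPKM in KO and 60.0 ± 10.3 FPKM in WT. Its regulatory partner Mat2b was at 73.0 ± 10.2 FPKM in KO and 90.2 ± 8.78 FPKM in WT. Mtr, methionine synthase, was at 5.50 ± 0.690 FPKM in KO and 9.05 ± 5.23 FPKM in WT, the wide WT spread coming from 14.8 FPKM in the mixed pool and 4.48 FPKM in the female pool.

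The 3 other regulators of ornithine decarboxylase included Azin2 (listed as Adc), a relative of Azin1. It was at 7.75, 7.003 and 10.6 FPKM in KO, against 5.0001, 5.62 and 4.39 FPKM in WT. Each KO value was above each WT value, and the log2 difference was 0.64 ± 0.26 (SE), with an adjusted p of 0.44 in limma. Oaz2, the second antizyme (listed as Oaz2-ps), was at 116 ± 27.0 FPKM in KO and 150 ± 21.1 FPKM in WT (SD, n = 3 each). Oaz3, an antizyme known from male germ cells, was at 0.716 ± 0.227 FPKM in KO and 0.481 ± 0.176 FPKM in WT.

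Of the 3 tested genes of polyamine breakdown, 0 passed, with a median of 0.20. Smox, spermine oxidase, was at 6.97 ± 0.784 FPKM in KO and 6.01 ± 1.268 FPKM in WT. Paox, the oxidase of acetylated polyamines, was at 4.15 ± 0.896 FPKM in KO and 2.83 ± 0.755 FPKM in WT. Sat2 was at 3.01 ± 0.362 FPKM in KO and 2.53 ± 0.591 FPKM in WT (SD, n = 3 each). The groups overlapped for all 3.

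The hypusine genes, which use spermidine to modify the translation factor eIF5A, gave 0 calls among 4, with a median of -0.06. Eif5a, its main gene, was at 123 ± 10.6 FPKM in KO and 125 ± 9.48 FPKM in WT (SD, n = 3 each). The 95% interval of its log2 difference was -0.49 to 0.44. Eif5a2, a second eIF5A gene, was at 2.56 ± 0.201 FPKM in KO and 3.97 ± 0.809 FPKM in WT. The libraries did not overlap, and the adjusted p was 0.70 in limma. Dohh and Dhps, the enzymes of hypusine formation, were at 23.0002 ± 4.89 and 12.7 ± 2.72 FPKM in KO, against 22.4 ± 2.04 and 13.6 ± 2.43 FPKM in WT.

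Of the 8 tested genes of polyamine transport, 0 passed, with 6 positive differences and a median of 0.15. Slc22a2, an organic cation transporter, was at 11.6, 4.81 and 14.4 FPKM in KO, against 21.7, 17.2 and 14.9 FPKM in WT. The groups did not overlap, although the female pools nearly met, and the adjusted p was 0.41 in limma for a log2 difference of -0.85 ± 0.34 (SE). Slc3a2, the heavy chain of several amino acid transporters, was at 79.1 ± 7.11 FPKM in KO and 76.0 ± 10.2 FPKM in WT (SD, n = 3 each). The ATPases Atp13a5 and Atp13a2, a lysosomal polyamine exporter, were at 33.3 ± 6.45 and 19.9 ± 3.04 FPKM in KO, against 25.8 ± 9.32 and 19.97 ± 7.68 FPKM in WT. Slc47a1 was at 3.37 ± 0.899 FPKM in KO and 2.07 ± 0.415 FPKM in WT.

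**Figure D5:**
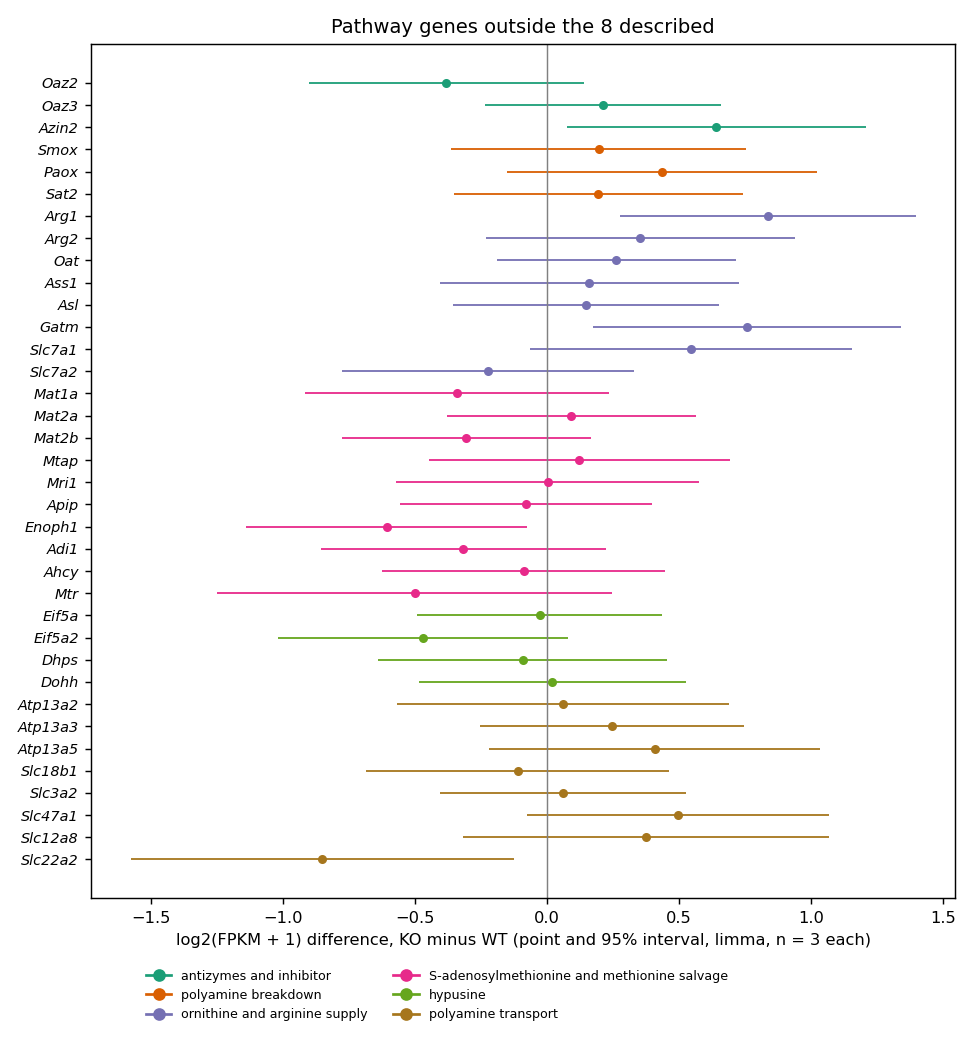
Difference of log2(FPKM + 1) between KO and WT (x axis, KO minus WT) for the 36 tested pathway genes other than the 8, with points for the estimate and bars for the 95% interval from limma (n = 3 each), coloured by list. The estimates run from -0.85 for Slc22a2 to 0.84 for Arg1, and 0 genes passed the adjusted threshold over all genes.

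Genes with the pattern most like that of Amd1, Amd2 and Odc1 were taken by Pearson correlation of log2(FPKM + 1) over the 6 libraries, among genes averaging 1 FPKM or more with a span of at least 1 on the log2 scale. For Amd1 they were Mrgprg (0.991), Fcgbp (0.988), Retnla (0.987), 0610040J01Rik (0.978) and Ms4a7 (0.977) among 5053 genes. For Amd2 they were Dcpp2 (0.992), Hgf (0.991), Tmem178 (0.988) and the odorant receptors Olfr1193 (0.987) and Olfr1220 (0.986). For Odc1 they were Nrgn (0.984), Rps4y2 (0.977), Nt5c (0.965), H2-T23 (0.963) and Dmkn (0.963). With so few libraries high values are common, since 81, 158 and 65 genes had a correlation above 0.9 with Amd1, Amd2 and Odc1, and the correlations for Amd1 and Amd2 largely repeat the order of the genotypes.

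Fcgbp, a mucus-associated protein, was at 48.6 to 75.4 FPKM in KO and 1.01 to 2.24 FPKM in WT, above the levels of Amd1 in both genotypes. Dcpp2 was at 6.45 to 8.23 FPKM in KO and 13.5 to 14.1 FPKM in WT. Among markers of other cells, 2 of the 4 tested eosinophil markers rose in KO, where limma called 0.212% of all tested genes higher. The 6 listed eosinophil markers summed to 33.0 to 38.6 FPKM in KO and 3.56 to 13.9 FPKM in WT. Of these 6, only Ear1 and Ear2 had each KO library above WT, as did 7.46% of all tested genes. Prg2, Epx, Siglec5 and Ccr3 overlapped between the genotypes. Of the 4 plasma cell markers, 1 rose, against the same 0.212% of all tested genes. These markers summed to 345 to 613 FPKM in KO and 128 to 247 FPKM in WT. All 4 were above WT in each KO library, as were 7.46% of all tested genes. Xbp1 was so only narrowly, at 178 FPKM in the KO mixed pool and 177 FPKM in the WT female pool. Xbp1 alone made up 104 to 177 FPKM of the WT sums. The 6 erythroid markers all had a negative difference with 0 past the test, and summed to 409 to 496 FPKM in KO and 353 to 2519 FPKM in WT, the highest being the WT male pool. Markers of dividing cells, in which polyamine synthesis is known to be high, overlapped, at 68.6 to 87.6 FPKM in KO and 60.997 to 86.7 FPKM in WT. The 7 gland and secretory markers all had a positive difference, with a median of 1.13 and 0 past the test. Their sums overlapped, at 23616 to 64574 FPKM in KO and 12107 to 62996 FPKM in WT. The 5 sustentacular markers all had a negative difference, and 4 of 5 immature neuron markers a positive one. In both lists 0 passed and the sums overlapped. The part of these cells in the levels of the 8 genes was not tested.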

How the data were processed

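The deposited table gives 1 FPKM value per gene symbol and library. The unit was inferred from the values and from the tools listed. The submitters' processing notes list mm9 as the build and, as the authors' tools, Cufflinks 1.3.3, TopHat2 2.0.7, Cuffdiff and Bowtie, without settings or annotation. In each genotype the 1 column that names no sex was taken as the mixed pool by elimination.

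Where a symbol had more than 1 row, that with the highest mean stood for it. The 15067 genes averaging 0.5 FPKM or more were compared as log2(FPKM + 1), which understates changes of low genes, with limma 3.58.1 in R 4.3.3. The prior variance followed the mean, with Benjamini-Hochberg adjustment and a threshold of 0.05. All adjusted p-values are from limma. Pools may share animals, so p-values measure the spread between pools. In simulated data (15067 genes, 5 runs) the genotype test recovered 78.4% of log2 2 changes and 16.8% of log2 1 changes. In each simulation the changed genes were drawn from those with a mean log2(FPKM + 1) above 1. The recovery of changes in lower genes is not known. Depth was estimated from 2022 genes with 1 annotated transcript, and equivalents in fragments are approximate and cover no error.

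The 8 genes and all lists were chosen with earlier results of these data known. Named were the 8, and per list the 3 most abundant genes and the 2 with the smallest p. Alternatives covered pseudocount, scaling, filter, prior variance, each library and the mixed pools left out, and the kind of pool as a block.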

Additional observations from a re-analysis of the deposited data

How the results depend on the processing

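Amd1 and Amd2 kept their directions under each of the 12 alternatives, with log2 differences of 3.87 to 4.27 and -1.62 to -1.26 over each library left out. Since the genotypes did not overlap for either gene, leaving out libraries could not change these directions. With a pseudocount of 0.1 the Amd1 difference was 5.56, because its WT values lie below 1 FPKM. The KO mean of the Amd sum was 87.5 to 99.7% of WT over each library left out. Genes called higher in KO numbered 15 to 184 and lower 25 to 453 over each library left out. They were 19 and 25 without KO mixed, 44 and 61 without KO male, 15 and 25 without KO female, 184 and 249 without WT mixed, 41 and 40 without WT male, and 89 and 453 without WT female. They were 81 and 186 with median-ratio scaling, 93 and 177 with quantile normalization, 12 and 18 with no filter, and 150 and 198 without the mixed pools. With the kind of pool as a replicate block they were 150 and 290, and Arg1 was then called (log2 difference 0.84, adjusted p = 0.021 in limma), the 1 pathway gene called under any of the 14 alternatives. Deviations from the group means correlated between same-kind pools at 0.36 (mixed), 0.21 (male) and -0.09 (female), so pools of a kind were not treated as pairs. Both mixed pools were also the shallowest libraries. Genes called for the female share were 0 to 50 over each library left out, 0 with either scaling or no filter, 28 at a mean of at least 2 FPKM and 36 in male and female pools only. For the difference by sex they were 12 with a pseudocount of 0.1. None of the 8 genes was among them. The cause of these shifts in counts was not tested.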
